A study of Mus musculus with 7 samples.

Results

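The regions described here are promoter regions that were accessible in every library of a study of early B-cell development. Overlapping ATAC-seq peaks from 7 peak lists were merged into 145247 union regions. Regions were selected on 2 criteria, a peak in all 7 libraries and a position within 1000 bp of a transcription start site (TSS) of the GENCODE M21 basic annotation of mm10. This left 15216 regions, 10.5% of all union regions and 64.6% of the 23553 union regions that lay within 1000 bp of a TSS. They are called shared promoters below. Accessibility itself therefore chose them, so their presence in every library and their number are descriptions and were not tested.

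ATAC-seq uses the Tn5 transposase to cut open chromatin and tag it with adapters, and peaks mark the places where the pileup of sequenced fragments exceeds a genome-wide background. The study asked how the ETS-family transcription factor Erg acts in B-lineage cells of mice, for which cells were sorted at 3 successive stages on the way to an immature B cell, named pre-proB, proB and preB. WT libraries at all 3 stages came from Ergfl/fl mice, which carry floxed Erg alleles and no Cre. The Erg KO pre-proB library came from Rag1CreT/+;Ergdelta/delta mice, in which Rag1Cre, a Cre active in lymphoid progenitors, had deleted Erg. The Rescue libraries, again at 3 stages, came from Rag1CreT/+;Ergdelta/delta;IgHVH10tar mice, which in addition carry a heavy chain allele that is already productively rearranged. Every library without Erg also carried Cre and no WT library did, so deletion and Cre cannot be told apart, and Erg was deleted in T-lineage and other lymphoid cells of those mice as well. The study used mice of both sexes over a range of ages, and the age, sex and number of animals behind each library are not stated. Each of the 7 groups had 1 library, so no spread between animals could be estimated, no significance test was run, and intervals below cover counting error only.

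A promoter is the stretch around a TSS where RNA polymerase II and general factors assemble, and in active or poised genes it is kept free of nucleosomes. Most promoters of broadly expressed mammalian genes lie in CpG islands, stretches rich in C, G and the CpG dinucleotide that escape DNA methylation, and are bound by factors such as SP, NRF1, NFY, YY1 and ETS proteins. Promoters of lineage-restricted genes are more often poor in CpG and opened by cell type factors, which in the B lineage include PU.1, Runx1, E2A and Ebf1.

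Stages followed the library titles. The source names of all 3 Rescue libraries contradict their titles and would move each to another stage. Taken by title, 35 shared promoters differed by 2-fold or more between Rescue and WT pre-proB, against 2250 if the source names were used, and the corresponding counts were 465 against 2219 at the proB stage and 295 against 718 at the preB stage. The lists held between 76465 peaks in WT preB and 105649 in Rescue pre-proB. Background pileups, the only measure of depth in the lists, ranged from 3.49 fragments in Rescue proB to 4.6 in Rescue pre-proB, and the weakest peaks had 10 to 12 fragments at the summit. A region without a peak may therefore still have been open in that library. Below, WT values are listed in the order pre-proB, proB and preB, Rescue values in the same order, and Erg KO has its pre-proB value alone.

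Sequences at the summit are shown for 8 of the shared promoters, as examples of steady promoters, of promoters that differed between stages, and of Erg itself. All are from the GRCm38.p6 (mm10) assembly and read 5′ to 3′ on the strand of the nearest TSS. They cover up to 50 bases on either side of the summit in the library with the highest fold, with annotated exon bases left out, and capitals mark matches to the searched motifs on either strand. Nabp1 (chr1:51478440-51478540, minus strand), Arl6ip1 (chr7:118129663-118129746, minus strand) and Glrx5 (chr12:105032457-105032557, plus strand) varied least over the 7 libraries. Sp1 (chr15:102405751-102405851, plus strand) carries an NFY match, AGCCAAT. The Erg promoter shown (chr16:95459513-95459613, minus strand) is the internal one. Igll1 (chr16:16864100-16864200, minus strand) and Serpina3f (chr12:104214127-104214227, plus strand) were higher in WT proB than in WT pre-proB, and Cd68 (chr11:69666155-69666255, minus strand) was lower.
Nabp1: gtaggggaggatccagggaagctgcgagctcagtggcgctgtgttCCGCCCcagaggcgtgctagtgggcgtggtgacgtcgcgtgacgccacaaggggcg
Arl6ip1: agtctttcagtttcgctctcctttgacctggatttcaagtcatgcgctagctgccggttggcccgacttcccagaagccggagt
Glrx5: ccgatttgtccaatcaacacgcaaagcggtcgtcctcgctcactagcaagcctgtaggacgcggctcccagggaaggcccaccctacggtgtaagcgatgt
Sp1: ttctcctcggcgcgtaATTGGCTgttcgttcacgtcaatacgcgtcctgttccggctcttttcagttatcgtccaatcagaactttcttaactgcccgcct
Erg: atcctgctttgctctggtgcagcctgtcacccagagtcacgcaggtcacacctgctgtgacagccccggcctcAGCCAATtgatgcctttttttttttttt
Igll1: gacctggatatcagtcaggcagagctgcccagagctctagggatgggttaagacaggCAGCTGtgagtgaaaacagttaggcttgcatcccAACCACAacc
Serpina3f: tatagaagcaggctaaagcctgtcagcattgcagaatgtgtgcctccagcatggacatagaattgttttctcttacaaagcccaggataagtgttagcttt
Cd68: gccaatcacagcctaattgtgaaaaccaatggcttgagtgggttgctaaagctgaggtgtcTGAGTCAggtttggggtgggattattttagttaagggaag

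The printed stretches of Nabp1, Glrx5 and Sp1 hold 10, 9 and 10 CpG dinucleotides, and that of Arl6ip1 holds 5 in its 84 bases. The stretches of Igll1, Serpina3f and Cd68 hold 0 CpG each, and that of Erg holds 2. The capitals mark CCGCCC, the reverse complement of the SP/KLF letters, in Nabp1, the E-box CAGCTG and the RUNX letters TGTGGTT (on the other strand) in Igll1, and the AP-1 letters TGACTCA (on the other strand) in Cd68. No searched motif was found in the stretches of Arl6ip1, Glrx5 and Serpina3f.

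Promoter regions were most often open in every library. Of 23553 promoter regions, 2120 (9.0%) had a peak in 1 library, between 3.89% and 6.94% in any given number from 2 to 6, and 64.6% (95% Wilson interval 64.0 to 65.2) in all 7. Of 121694 distal regions, farther than 1000 bp from a TSS, 25.7% (25.4 to 25.9) had a peak in all 7 libraries and 19.6% in 1.

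**Figure D1:**
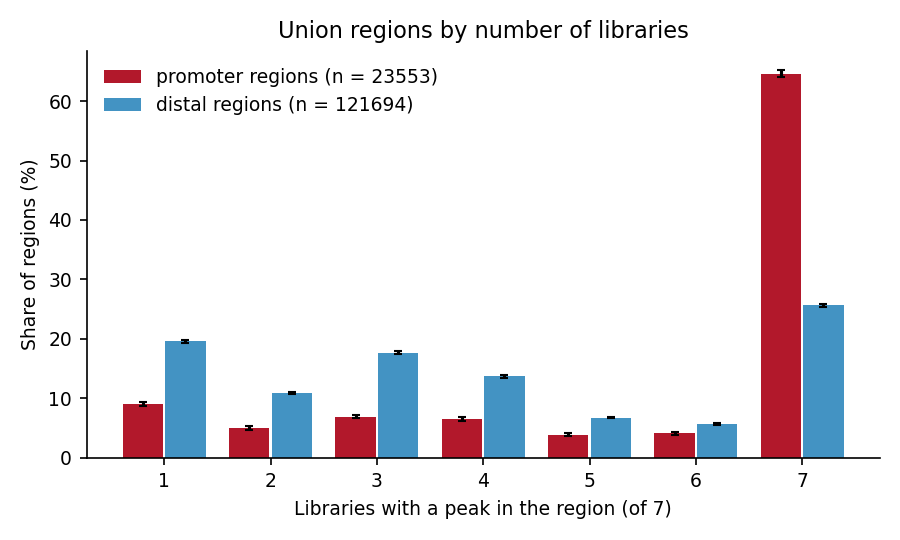
Share of promoter regions (n = 23553) and distal regions (n = 121694), in percent on the vertical axis, by the number of libraries with a peak on the horizontal axis. Error bars are 95% Wilson intervals. The bar for promoter regions with a peak in all 7 libraries stands at 64.6% and that for distal regions at 25.7%.

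Promoter regions that a single library lacked were weak. Of these 965 regions, 149, 108 and 534 were missing from the WT libraries, 59 from Erg KO, and 31, 29 and 55 from the Rescue libraries. The fold of a peak is its summit pileup over the background pileup, each with 1 added. The median fold in the remaining libraries was 6.71 for the regions that WT preB lacked and 8.45 for those that WT proB lacked. WT preB had the shortest peak list. Just inside the criteria, 1602 shared promoters (10.5%) had a −log10 q under 10 in their weakest library, while the median of the weakest value was 142. At the distance limit, the farthest members lay 1000 bp from a TSS of 4930562F17Rik, with folds from 3.88 to 6.01, and of Fam214b, with folds from 4.68 to 11.4. The nearest regions beyond it lay 1001 bp from TSS of Gng7, with folds from 11.3 to 17.2, and of Fam198b, with folds from 5.70 to 12.

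Shared promoters held few of the peaks of a library but many of the strongest. They held between 16.3% of the peaks of Rescue pre-proB and 22.7% of those of WT preB. Of the 10000 peaks with the highest score in each library, 54.0% to 55.3% in the 3 pre-proB libraries lay in shared promoters. In the proB and preB libraries this share was between 62.0% in WT proB and 66.8% in Rescue proB. The median fold of shared promoters was 33.9, 34.7 and 37.3 in WT, 34.1 in Erg KO, and 37.0, 36.8 and 40.2 in Rescue. Distal regions open in all libraries had medians from 10.5 to 13.2, and promoter regions open in 1 to 6 libraries had medians from 4.62 to 5.62. Shared promoters were also wide, with a median of 1542 bp (quartiles 1082 and 2122 bp) against 814 bp for distal regions open in all libraries, and together they covered 26.2 Mb.

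Shared promoters belonged mainly to protein-coding genes. A coding TSS lay within 1000 bp of 12843 of them (84.4%), and of the 2373 others 740 were named by a lincRNA, 343 by a processed pseudogene and 339 by an antisense RNA. Of 21851 annotated coding genes, 12910 (59.1%) had a shared promoter at a TSS. A TSS lay inside the region for 13259 (87.1%). TSS of 1 gene lay near 11712 of the regions, of 2 genes near 3170 and of 3 or more near 334, and a divergent pair of TSS, on opposite strands and at most 1000 bp apart, was found at 1969 (12.9%).

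Genes that every cell needs nearly all had a shared promoter, and genes of sensory and epithelial cells nearly all lacked one. Families were taken by the prefix of the gene symbol alone, on the autosomes, X and Y, so they need not match the subunits of a complex. All 78 genes named for the mitochondrial ribosome (Mrpl, Mrps) had one. So did all 46 named for complex I of the respiratory chain (Nduf) and all 13 named for RNA polymerase II (Polr2). For the cytosolic ribosome the count was 88 of 98 genes, and the 10 without one were Rpl3l, Rpl10l, Rpl39l, Rps27rt and genes whose symbols mark them as pseudogene copies. The proteasome had 38 of 40, without Psma8 and Psmb11, which are known from testis and thymus. Translation initiation factors had 52 of 55, the spliceosome 19 of 21, the chaperonin 7 of 8, histones 60 of 67 and zinc finger (Zfp) genes 327 of 394. Olfactory receptors had 11 of 1134 genes, vomeronasal receptors 1 of 331, and keratins 1 of 53, which was Krt10. Since presence in all libraries was the criterion, these shares describe the set.

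The median fold of the family members over the 7 libraries was 60.1 for translation initiation factors, 61.6 for histones, 51.7 for complex I and 43.3 for both ribosomes, and it was 11.0 for the 14 regions at olfactory receptor TSS. The range of the centred log2 fold over the 7 libraries, described below, had a median of 0.46 for complex I, 0.48 for translation initiation factors and 1.03 for the olfactory receptor regions, beside 0.69 for all shared promoters.

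The actin gene Actb had folds of 66.9, 62.0 and 69.3 in WT, 67.4 in Erg KO, and 71.7, 78.6 and 73.0 in Rescue. The glycolytic gene Gapdh ranged from 85.4 in Erg KO pre-proB to 98.1 in Rescue pre-proB. Neither differed by 2-fold in any comparison. All 8 genes of factors that bind the searched promoter motifs had a shared promoter (Gabpa, Nrf1, Sp1, Nfya, Yy1, Creb1, Zbtb33 and Ctcf), and the folds of Sp1 lay between 149 and 170.

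The summits clustered on the TSS. The median summit lay between 15 bp upstream (Rescue pre-proB, -15) and 6 bp upstream (WT preB and Rescue preB, -6) of the nearest TSS, and in WT pre-proB the quartiles were -111 and 78 bp. Between 51% and 52.3% of summits lay within 100 bp of a TSS. With the 7329 regions that had a single gene and a single TSS, the medians ran from -10 to 4 bp, so the side of the TSS on which the median fell depended on the TSS counted. The summits of the 7 libraries spanned a median of 84 bp within a region (quartiles 47 and 159), and in 57.7% of regions all 7 lay within 100 bp.

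**Figure D2:**
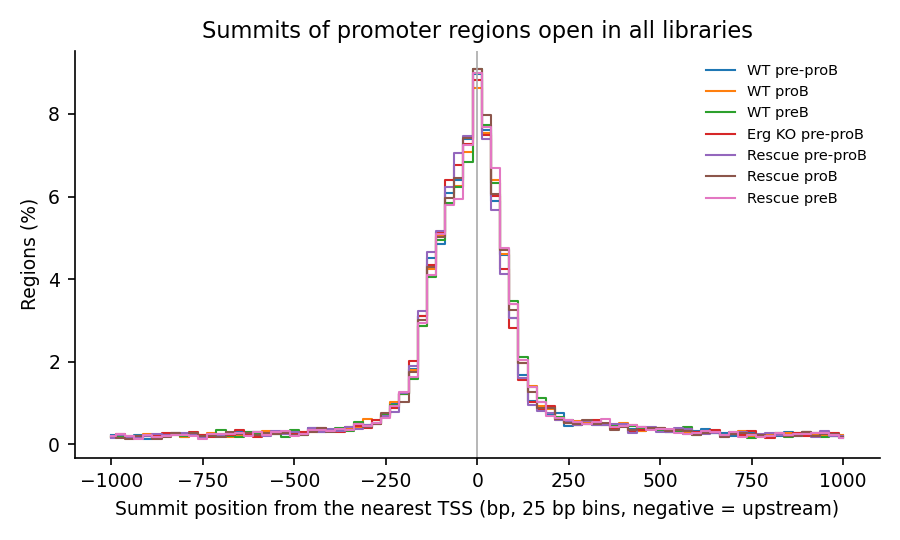
Distribution of summits of the 15216 shared promoters around the nearest TSS, in bins of 25 bp on the horizontal axis and percent of regions on the vertical axis, with 1 line per library. All 7 lines have their maximum close to the TSS, and between 51% and 52.3% of summits lie within 100 bp of it.

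Shared promoters were rich in CpG. A window of 250 bp on either side of the summit was called CpG-rich when its GC content was at least 50% and its ratio of observed to expected CpG at least 0.6, a definition chosen after the data had been seen. By this definition 9763 of 15216 shared promoters (64.2%, interval 63.4 to 64.9) were CpG-rich, against 14.8% of promoter regions open in 1 to 6 libraries and 3.14% of distal regions open in all libraries. The median window held 34 CpG in shared promoters, 7 in the partly open promoter regions and 6 in the distal regions, at median GC contents of 61.3%, 49.5% and 47.5%. The median fold was 47.2 for CpG-rich and 19.2 for CpG-poor shared promoters.

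Motif letters of general promoter factors were more frequent on these summits than on the others, and those of RUNX, PU.1 and AP-1 factors and the E-box were less frequent. Windows of 50 bp on either side of the summit were searched on both strands for fixed letters. The letters CCGGAAG of ETS factors stood in 949 of 15216 shared promoters, 6.24% (interval 5.86 to 6.63), in 1.03% of promoter regions open in 1 to 6 libraries and in 1.30% of distal regions open in all libraries. The share over all 23553 promoter regions was 4.39%. The difference of shared promoters from distal regions was 4.93 percentage points (Newcombe interval 4.54 to 5.35). The same letters in reverse order without complementing stood in 2.10% of shared promoters and 1.48% of the distal regions. Reversal keeps the base content but removes the CpG within CCGGAAG, so it is no control for CpG content. The GC box of SP and KLF factors, GGGCGG, stood in 31.8% of shared promoters, 9.28% of partly open and 4.78% of distal regions, with 23.8% over all promoter regions. Reversed, it stood in 31.6%, within the interval of the letters as written (31.1 to 32.6).

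NFY letters, AGCCAAT, stood in 4.42% of shared promoters against 1.49% of partly open promoter regions and 1.46% of the distal regions, with 0.283% for the reversed letters and 3.38% over all promoter regions. The palindrome of NRF1, CGCATGCG, was found in 0.894% against 0.0120% and 0.118% (0.582% over all promoter regions), the YY1 letters AAGATGGCG in 0.854% against 0.0840% and 0.205% (0.582%), the cAMP response element TGACGTCA in 1.18% against 0.312% and 0.275% (0.870%), and the ZBTB33 letters TCTCGCGA in 0.710% against 0.0480% and 0.00640% (0.476%). For each of these the intervals of both differences lay above 0. Reversed, the NRF1, YY1 and cAMP response element letters stood in 0.0723%, 0.0526% and 0.184% of shared promoters, and the ZBTB33 letters in 0.486%. Reversal also removes the CpG of the cAMP response element letters and part of the CpG of the ZBTB33 letters. It adds a CpG to the NFY letters, so for these too it is no control for CpG content.

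RUNX letters, TGTGGTT, went the other way, with 2.17% of shared promoters against 5.64% of partly open promoter regions and 6.60% of distal regions (3.40% over all promoter regions). PU.1 letters, GAGGAAGT, stood in 2.02% against 3.54% and 5.79% (2.56%), AP-1 letters, TGACTCA, in 1.06% against 2.16% and 2.33% (1.45%), the E-box CAGCTG in 8.47% against 12.2% and 13.3% (9.77%), and the TATA letters TATAAA in 1.64% against 3.32% and 3.76% (2.24%). CTCF letters, AGGGGGCGC, were at 0.887%, 0.348% and 1.10% (0.696%), and EBF letters, CCCNNGGGA, at 3.15%, 3.98% and 2.65% (3.44%), so that EBF letters were less frequent than in partly open promoter regions and more frequent than in distal regions, by 0.50 points (interval 0.176 to 0.836). The ETS and PU.1 letters share GGAAG and the SP/KLF and CTCF letters share GGGCG, but no full match of one is a match of another. A match describes letters, and binding was not measured.

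**Figure D3:**
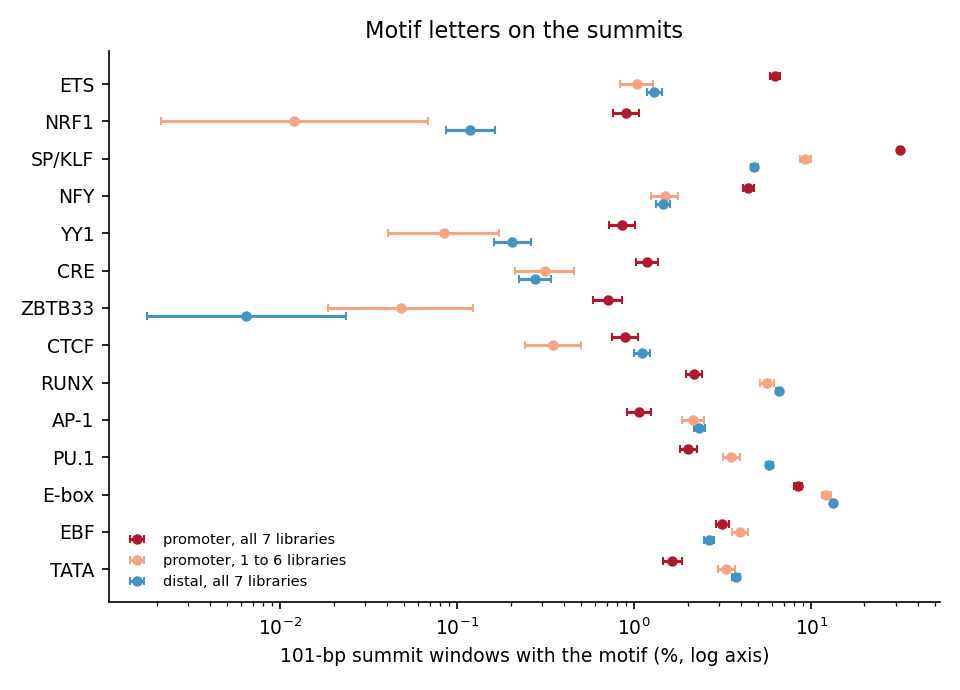
Share of summit windows, 50 bp on either side, that hold each motif, in percent on a log axis, for shared promoters (n = 15216), promoter regions open in 1 to 6 libraries (n = 8337) and distal regions open in all libraries (n = 31226), with 95% Wilson intervals. Shared promoters stand to the right for ETS (6.24%), NRF1, SP/KLF, NFY, YY1, CRE and ZBTB33 and to the left for RUNX (2.17%), AP-1, PU.1, E-box and TATA.

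Signal at most shared promoters varied little. For each region and library the log2 fold was centred on the median of all shared promoters, and the range over the 7 libraries was taken. The median range was 0.69 (quartiles 0.44 and 1.12), and in 10683 regions (70.2%) the highest and lowest libraries lay within 2-fold. The range exceeded 4-fold, 2 on the log2 scale, in 1049 (6.89%). CpG-rich regions had a median range of 0.57 and CpG-poor regions of 1.0, and 81.4% of the former and 50.2% of the latter stayed within 2-fold.

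The steadiest region was the promoter of Nabp1, which encodes a single-stranded DNA binding protein of the DNA damage response. Its folds were 151, 152 and 168 in WT, 149 in Erg KO, and 164, 164 and 179 in Rescue, with a range of 0.05 on the centred log2 scale. Arl6ip1, a membrane protein of the endoplasmic reticulum, had folds from 142 to 169, and Glrx5, a mitochondrial glutaredoxin of iron-sulfur cluster assembly, from 193 to 232, both with a range of 0.07. These were all strong regions, in which counting error is small.

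The strongest folds did not belong to such genes. Gm10800 and Gm10801, 2 predicted genes on chromosome 2, had folds from 4524 to 5486 and from 1378 to 1986, and 100% and 60.4% of their summit windows were soft-masked as repeats in the assembly. Gm27940 followed with folds from 402 to 652. The lowest median folds were at Sobp (2.86 to 4.54), Dbx1 (2.91 to 4.58) and Gm28914 (2.75 to 4.38). The widest region, 16607 bp at chr12:113415381-113431987, covers TSS of 11 annotated genes of the heavy chain locus, among them Ighd4-1, the J segments and Ighm. Its folds were 74.6, 45.8 and 74.5 in WT, 78.6 in Erg KO, and 74.3, 58.6 and 69.1 in Rescue. WT and Rescue proB were the lowest. DNA of this locus is rearranged in these cells and replaced in part on the Rescue allele, so loss of template and loss of accessibility cannot be told apart there. Sfi1 (16053 bp) and the Siglech region (14929 bp) were next in width.

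Between libraries, ratios of folds were centred on the median ratio of all shared promoters and called past 2-fold. The background is the share of all union regions with a peak in both libraries that passed the same limit. From WT pre-proB to WT proB, 1208 shared promoters (7.94%) were higher and 843 (5.54%) lower, beside a background of 13.6% higher and 16.2% lower over 59510 regions. In either direction this was 13.5% of shared promoters and 32.3% of distal regions open in all libraries, a difference of -18.8 percentage points (interval -19.5 to -18.0). From WT proB to WT preB, 136 (0.894%) were higher and 810 (5.32%) lower, beside 3.78% and 10.4% over 64233 regions. Without centring these counts were 215 and 640. Both shares of the shared promoters were under the background.

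Between genotypes the shares were smaller. Erg KO against WT pre-proB gave 6 higher and 21 lower (0.177% in either direction), beside 0.247% higher and 0.296% lower over 84912 regions. When peak length times mean fold was compared in place of the summit, the counts were 346 higher and 242 lower, so the number and the direction of the split depended on the measure. Rescue against WT pre-proB gave 5 higher and 30 lower, beside 0.248% and 0.418% over 85810 regions, with 13 higher and 21 lower without centring and 340 higher and 258 lower by peak length times mean fold. Rescue against WT proB gave 203 higher and 262 lower, beside 4.24% and 8.05% over 69231 regions. Without centring this split was 279 higher and 179 lower, so the direction of the split at this stage depended on the scaling. Rescue against WT preB gave 271 higher and 24 lower, beside 2.08% and 1.35% over 66190 regions. Distal regions open in all libraries passed 2-fold in 0.624%, 0.810%, 11.4% and 3.11% in these 4 comparisons, each above the 0.177%, 0.230%, 3.06% and 1.94% of shared promoters.

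**Figure D4:**
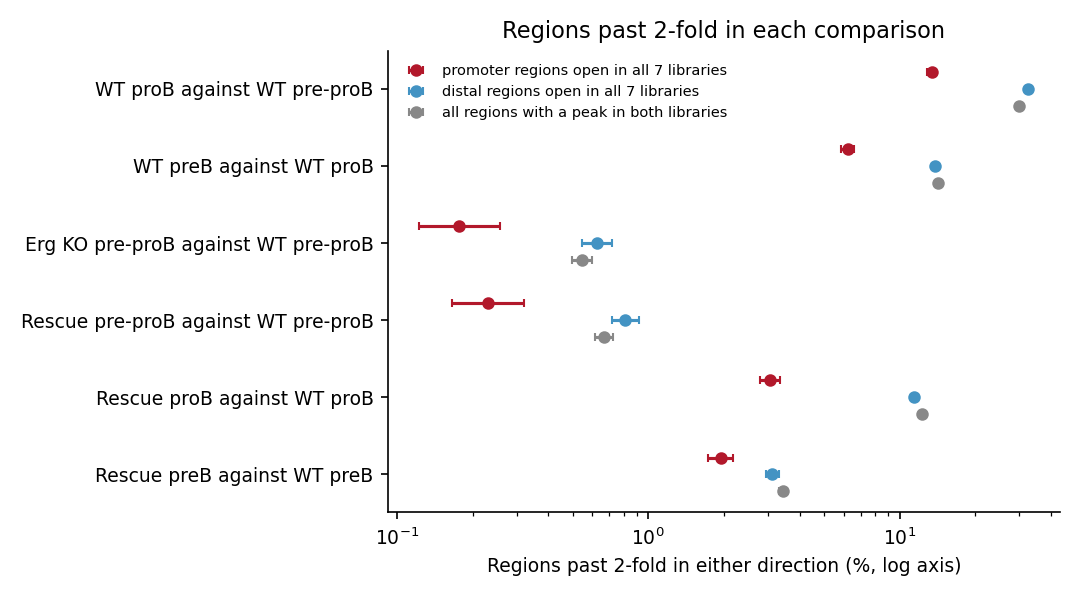
Share of regions past 2-fold in either direction, in percent on a log axis, for the 6 comparisons on the vertical axis. Points are shared promoters, distal regions open in all libraries and all regions with a peak in both libraries, with 95% Wilson intervals. Shared promoters lie left of the other sets in all 6 comparisons, from 0.177% for Erg KO against WT pre-proB to 13.5% for WT proB against WT pre-proB.

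The share past 2-fold varied with the level of signal, so shared promoters and distal regions were also compared at matched levels. Among regions with a mean fold of 30 to 100 in the 2 libraries, 448 of 6772 shared promoters (6.62%) and 1771 of 4769 distal regions (37.1%) passed 2-fold between WT pre-proB and proB. With a mean fold under 10 the shares were 20.9% and 20.5%. In other comparisons the difference from distal regions was absent or turned at some levels. Under a mean fold of 10, 18.8% of shared promoters and 12.2% of distal regions passed 2-fold between WT proB and preB, and 5.48% and 3.68% did between Rescue and WT preB. For Erg KO at a mean fold of 30 to 100, 1 of 6621 shared promoters and 1 of 5921 distal regions passed. Between WT pre-proB and proB, CpG-poor shared promoters passed 2-fold in 25.4% of cases and CpG-rich ones in 6.83%. At a mean fold of 30 to 100 these shares were 19.7% and 2.67%, but under a mean fold of 10 they were 20.8% and 21.2%. In the CpG-rich class 557 were higher and 110 lower in WT proB, while in the CpG-poor class 651 were higher and 733 lower.

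Shared promoters that were higher in WT proB include genes of the B lineage. Igll1, a component of the surrogate light chain of the pre-B receptor, had folds of 25, 141 and 81.3 in WT, 20.9 in Erg KO, and 21.6, 114 and 86.7 in Rescue. All 3 pre-proB libraries lay below all 4 others. The log2 ratio of WT proB to WT pre-proB was 2.48 (interval 2.22 to 2.78). Ebf1, a factor that specifies the B lineage, had folds of 21.5, 58.9 and 51.1 in WT, 24.4 in Erg KO, and 23.6, 48.1 and 43.5 in Rescue. Rag2, a subunit of the recombinase, had 9.50, 31.4 and 34.4 in WT, 7.51 in Erg KO, and 9.83, 22.1 and 34.7 in Rescue. Cd79b, a signalling chain of the B-cell receptor, had 2 regions, of which the stronger gave 8.34, 33.6 and 48.9 in WT, 6.60 in Erg KO, and 7.86, 35.6 and 51 in Rescue. In Ebf1, Rag2 and this Cd79b region the pre-proB libraries were again the 3 lowest.

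Of 18 genes that the study placed in a network downstream of Erg, 13 had a shared promoter, with 15 regions. Between WT pre-proB and proB, 5 of the 15 regions were higher by 2-fold (Ebf1, Igll1, Cd79b, Rag2 and Lef1), 1 was lower, and their median log2 ratio was 0.60, beside 7.94% higher, 5.54% lower and a median of 0.00 for all shared promoters. The lower one was at Cd22, an inhibitory receptor of B cells, and lay 792 bp from the TSS. It had folds of 30.4, 6.28 and 14.7 in WT, 35.4 in Erg KO, and 40.4, 17.2 and 16.5 in Rescue. Of its summit window, 49.5% was soft-masked as repeats. The end-joining genes Lig4 (98.2 to 132) and Xrcc6, and the factors Irf4 (49.8 to 67.7), Bach2 and Myc stayed within 2-fold in every comparison. In Erg KO and Rescue pre-proB against WT 0 of the 15 regions passed 2-fold, with median log2 ratios of 0.02 and -0.02. As 0.177% and 0.230% of all shared promoters passed there, these counts say nothing particular about the list. The study chose this list on cells of these genotypes, so its direction is not independent evidence. Pax5, Vpreb1, Vpreb2, Cd79a and Pou2af1 had no shared promoter, and none of these 5 had a promoter peak in the Erg KO list. In the Rescue pre-proB list, Cd79a alone of these 5 had one. Such absences were not counted over all genes, so they are not a result about the list. A promoter without a called peak may still have been open, and the study reports the Pax5 locus as still accessible in Erg KO pre-proB cells.

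Among the largest ratios from WT pre-proB to WT proB at coding genes, with at least 30 fragments in both libraries, were those of Egfl6 and Serpina3f. Egfl6, a secreted EGF-repeat protein, had folds of 11.4, 131 and 152 in WT, 5.50 in Erg KO, and 7.15, 107 and 148 in Rescue. Its log2 ratio was 3.51 (interval 3.14 to 3.94), 11.4-fold. Serpina3f, a serine protease inhibitor, had 14.3, 127 and 94.7 in WT, 4.76 in Erg KO, and 7.15, 60.6 and 94.9 in Rescue. For both genes the pre-proB libraries stood apart from the proB and preB libraries without overlap.

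Regions that were lower in WT proB included genes of dendritic and myeloid cells. Clec4a2, a C-type lectin receptor of these cells, had summit pileups of 455, 39 and 22 fragments in WT, 548 in Erg KO, and 597, 131 and 53 in Rescue, with a log2 ratio of WT proB to WT pre-proB of -3.60 (interval -4.14 to -3.16). Cd68, a lysosomal glycoprotein of macrophages, had folds of 76.0, 6.65 and 9.21 in WT, 81.9 in Erg KO, and 79.9, 16.9 and 12.6 in Rescue. Gpr55, a lipid receptor, had 83.0, 7.57 and 3.51 in WT, 83.6 in Erg KO, and 78.6, 15.1 and 4.75 in Rescue. All 3 were highest in the pre-proB libraries, without overlap with the 4 others.

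**Figure D5:**
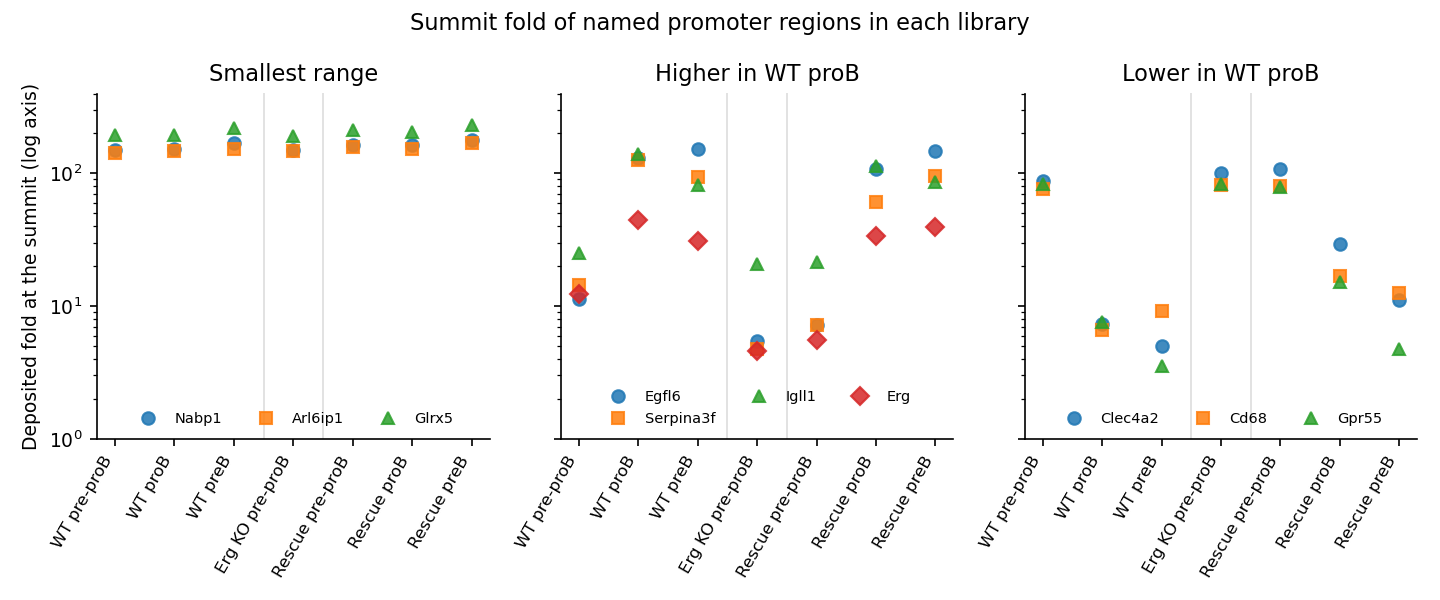
Deposited fold at the summit, on a log axis, in each of the 7 libraries for the 3 regions with the smallest range, for 4 regions higher in WT proB (Egfl6, Serpina3f, Igll1 and the internal Erg promoter) and for 3 regions lower in WT proB. Each point is 1 library and grey lines separate WT, Erg KO and Rescue. Nabp1, Arl6ip1 and Glrx5 lie between 142 and 232 throughout, whereas Egfl6 runs from 5.50 to 152 and Clec4a2 from 107 to 5.04, with the 3 pre-proB libraries together.

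Markers of plasmacytoid dendritic cells were well represented, since all 10 listed genes had a shared promoter, with 16 regions. Siglech, a surface lectin of these cells, had summit pileups of 522, 100 and 169 fragments in WT, 561 in Erg KO, and 633, 215 and 263 in Rescue, with a log2 ratio of WT proB to WT pre-proB of -2.46 (interval -2.79 to -2.16). The first region at Bst2, a gene for an antiviral membrane protein, lay 894 bp from the TSS. It had folds of 81.0, 13.1 and 7.45 in WT, 82.8 in Erg KO, and 92.4, 20.9 and 11.8 in Rescue. The other Bst2 region, which holds the TSS, had 49.6, 33.2 and 35.1 in WT. Its log2 ratio of WT proB to WT pre-proB was -0.59 (interval -0.88 to -0.31). From WT pre-proB to proB 4 of the 16 regions were lower and 1, the second Tcf4 region, was higher. The median log2 ratio of the 16 was 0.01. Over all shared promoters 5.54% were lower and 7.94% higher. The summed fold of the strongest promoter peak of each of the 10 genes was 647, 467 and 676 in WT, 651 in Erg KO, and 702, 516 and 685 in Rescue. Both proB libraries were the lowest.

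For NK and innate lymphoid cells 5 of 10 listed genes had a shared promoter, and the summed fold ran from 75.2 in WT preB to 214 in Rescue pre-proB. From WT pre-proB to proB, Klrb1c and Klrd1 were lower by over 2-fold, with log2 ratios of -2.27 and -1.46, while Prf1 and Eomes had ratios of 0.97 (interval 0.58 to 1.39) and 0.98 (0.22 to 1.86) and Rora had -0.44. The defining genes Ncr1 and Gzmb had no promoter peak in any library. For T cells it was 4 of 10, and Cd3e, Cd3d and Zap70 had no promoter peak in any library, with summed folds from 146 in WT pre-proB to 211 in WT proB. The myeloid list had 2 of 10, which differed in direction. Itgam, an integrin chain, had folds of 27.9, 4.06 and 5.26 in WT, 25.7 in Erg KO, and 29.8, 8.69 and 7.43 in Rescue. Csf1r, the receptor of a macrophage growth factor, had 7.37, 12.9 and 13.8 in WT, 8.80 in Erg KO, and 8.94, 22.5 and 18.8 in Rescue. Elane, Ctsg, S100a8, S100a9 and Ly6g had no promoter peak in any library, and the summed fold of the list ran from 24.4 in WT proB to 49.9 in Rescue pre-proB. Stem and progenitor genes had 9 of 10, with a summed fold from 315 in WT preB to 461 in Rescue preB. Flt3, a cytokine receptor, had folds of 123, 91.6 and 115 in WT, 120 in Erg KO, and 129, 107 and 130 in Rescue. Of 8 erythroid genes found in the annotation 4 had a shared promoter, Gata1, Alas2 and Slc4a1 were without a promoter peak in every library, and the summed fold ran from 123 to 150. Of 10 genes not expressed in blood, Pax6, a factor of eye and brain, alone had a shared promoter, with 7.95, 38.0 and 28.1 in WT, 8.61 in Erg KO, and 8.76, 27.4 and 35.1 in Rescue. In sorted cells a smaller share of cells with an open promoter and less opening per cell cannot be told apart, and the part of admixed cells in these values was not tested. The sorting gates of the study for all 3 stages left out NK1.1+ and CD11c+ cells, and Klrb1c encodes NK1.1.

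The regions higher or lower between WT pre-proB and WT proB were then read in the other libraries, which had not set the direction, although a peak in all 7 was required of every region. The 1208 regions higher in WT proB had a median fold of 25.2 in WT preB, 9.16 in Erg KO, and 9.92, 23.4 and 28.5 in Rescue. The 843 lower regions had a median fold of 10.1 in WT preB, 38.5 in Erg KO, and 41.8, 16.9 and 14.4 in Rescue. In both groups the Rescue proB and preB medians were closer to WT preB than to the other pre-proB libraries. Rescue preB was above WT preB in 597 of the 843 lower regions (70.8%), with a median log2 ratio of 0.24, and by 2-fold or more in 80 (9.49%). Among the 13165 regions within 2-fold between the WT stages it was above in 48.7% and by 2-fold or more in 1.25%.

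Motif letters also differed between these groups. EBF letters stood in 83 of 1208 regions higher in WT proB (6.87%, interval 5.58 to 8.44), in 7 of 843 lower regions (0.830%, 0.403 to 1.70) and in 2.95% of the 13165 regions within 2-fold. Reversed, they stood in 2.90%, 1.07% and 2.24%. RUNX letters stood in 2.57% of the higher, 7.95% of the lower and 1.76% of the steady regions, PU.1 letters in 2.40%, 5.34% and 1.78%, and the E-box in 13.3%, 19.7% and 7.31%. ETS letters were found in 2.40% and 1.30% of the higher and lower regions and in 6.90% of the steady ones. YY1 letters were found in 130 regions, all within 2-fold. The CpG-rich class made up 46.1% of the higher, 13.0% of the lower and 69.1% of the steady regions, and its part in the motif shares was not tested.

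From WT proB to WT preB, the coding genes with the largest ratios among regions with at least 30 fragments in both libraries were Slc25a31, Thbs4 and March1 upwards and Rab27b, Eml6 and Ankrd17 downwards. March1, a ubiquitin ligase that acts on MHC class II, had folds of 42.6, 6.09 and 21.3 in WT, 37.6 in Erg KO, and 42.0, 18.5 and 31.2 in Rescue. Thbs4, an extracellular matrix protein, had 6.4, 12.4 and 44.9 in WT, 6.23 in Erg KO, and 6.61, 17.4 and 46.4 in Rescue. Eml6, a microtubule-associated protein, had 94.2, 60.7 and 11.6 in WT, 98.0 in Erg KO, and 119, 61.0 and 45.8 in Rescue, a log2 ratio of WT preB to proB of -2.51 (interval -2.98 to -2.11). Ankrd17 had 6.59, 35.4 and 6.79 in WT, 4.03 in Erg KO, and 4.47, 13.6 and 6.60 in Rescue. Of the stem cell list, Kit, the receptor for stem cell factor, had 26.2, 46.7 and 14.2 in WT, 23.3 in Erg KO, and 24.7, 25.2 and 19.6 in Rescue, and was the sole region of that list past 2-fold at this step.

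Erg itself had 2 shared promoters. The internal promoter, at chr16:95457665-95460076 where the shorter transcripts start, had folds of 12.4, 44.9 and 30.7 in WT, 4.58 in Erg KO, and 5.54, 33.6 and 39.6 in Rescue. Its pileup was 63 fragments in WT pre-proB, 24 in Erg KO and 30 in Rescue pre-proB. The log2 ratio to WT pre-proB was -1.45 in Erg KO (interval -2.23 to -0.79) and -1.29 in Rescue pre-proB (-2.00 to -0.67), while the ratio of Rescue to WT was -0.52 (-0.83 to -0.23) at the proB stage and 0.25 (-0.07 to 0.58) at the preB stage. The region at the upstream promoter, chr16:95585062-95586029, lay 564 bp downstream of the nearest TSS and did not hold it. It had 9.50, 18.1 and 21.5 in WT, 10.6 in Erg KO, and 9.65, 24.3 and 26.2 in Rescue. Its log2 ratio in Erg KO was 0.14 (-0.43 to 0.73). Neither region tells whether the floxed exon had been removed.

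Most shared promoters past 2-fold in Erg KO were weak in pre-proB cells. Of the 27 regions, 24 had a mean fold under 10, and the counting interval lay wholly past 2-fold for 3. Besides Erg, the lower ones include 1700027J07Rik, with folds of 12, 110 and 76.3 in WT, 2.93 in Erg KO, and 3.57, 67.9 and 66.6 in Rescue. Camk1g, a calmodulin-dependent kinase, had 12.8, 88.6 and 48.4 in WT, 4.58 in Erg KO, and 4.47, 25.2 and 45.8 in Rescue. The second region of Tcf4, an E-protein gene, had 8.53, 70.5 and 18 in WT, 3.48 in Erg KO, and 3.57, 11.1 and 9.28 in Rescue. These 4 regions were highest in WT proB, and in pre-proB cells lay higher in WT than in Erg KO and Rescue. The other Tcf4 regions stayed within 2-fold in every comparison, with log2 ratios in Erg KO of -0.04, -0.05 and -0.40. Of the 21 lower regions, 17 were also higher by 2-fold in WT proB, beside 7.94% of all shared promoters. In Rescue pre-proB against WT all 21 had a negative centred log2 ratio. There 16 of them were lower by 2-fold, beside 0.197% of all shared promoters. Pink1, Gm20110 and Gm16299 were among those not higher by 2-fold in WT proB. Pink1, a mitochondrial kinase, had 14.2, 8.49 and 7.23 in WT, 5.50 in Erg KO, and 6.97, 6.68 and 7.01 in Rescue. Gm20110 had 9.30, 7.75 and 8.77 in WT and 4.21 in Erg KO, and Gm16299 had 28.1, 29.7 and 23.5 in WT and 8.98 in Erg KO. Erg KO, Rescue pre-proB and WT proB were all set against the same WT pre-proB library here, so these ratios are not independent of each other. Of the 18 network genes, WT pre-proB had a promoter peak for all 18, Erg KO for 13 and Rescue pre-proB for 14. The same loss was not counted over all genes, and the study chose this list on cells of these genotypes. These counts are therefore not a result about the list. The part of more advanced B-lineage cells in the WT pre-proB library was not tested.

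Ddt, which encodes D-dopachrome tautomerase, was the strongest region lower in Erg KO. Its folds were 57.4, 51.3 and 50.6 in WT, 28.2 in Erg KO, and 59.2, 47.0 and 47.0 in Rescue, so Erg KO was below all 6 other libraries. Its log2 ratio was -1.04 (interval -1.34 to -0.76) at 153 against 295 fragments. Of the 6 regions higher in Erg KO, Edil3 alone had at least 30 fragments in both libraries, with folds of 6.78 in WT and 13.9 in Erg KO. Of the 949 regions with ETS letters, the motif family to which Erg belongs, 0 were higher and 1 lower (0.105%) in Erg KO, beside 6 higher and 20 lower (0.140%) of the 14267 others, and their median log2 ratio was -0.007, beside 0.001. At these shares the counts do not set ETS regions apart.

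Among Rescue and WT proB cells, Ttll7, a tubulin polyglutamylase, had folds of 43.4 in Rescue and 9.42 in WT, and at the preB stage 56.7 and 8.33, the largest ratio among coding regions with at least 30 fragments in both libraries, with log2 ratios of 2.10 (interval 1.67 to 2.60) and 2.65 (2.18 to 3.22). Its pre-proB folds were 19 in WT, 25.7 in Erg KO and 25.2 in Rescue. Arrdc4, an arrestin-domain protein induced by glucose, had 236, 100 and 30.7 in WT, 250 in Erg KO, and 262, 152 and 155 in Rescue. Resf1 had 34.7, 7.75 and 12.1 in WT, 42.1 in Erg KO, and 46.1, 34.3 and 37.1 in Rescue. In these 3 genes the Rescue proB and preB libraries lay above both WT libraries of the same stages. In the other direction, the second Tcf4 region had 70.5 in WT proB and 11.1 in Rescue proB, Iqsec1, an exchange factor for Arf proteins, had 54.3 and 11.8, and Apobec1, a cytidine deaminase, had 73.2 in WT preB and 29.1 in Rescue preB. Zfp972 had 39.7, 41.5 and 43.8 in WT, 38.3 in Erg KO, and 15.9, 25.2 and 18.6 in Rescue, so all 3 Rescue libraries lay below the 4 others. The counting interval lay wholly past 2-fold for 112 of 465 regions at the proB stage and for 59 of 295 at the preB stage.

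On the X chromosome, the median fold of the 454 shared promoters relative to that of 14758 on autosomes was 1.0, 0.973 and 0.857 in WT, 1.03 in Erg KO, and 1.02, 0.90 and 0.885 in Rescue. The interval, from the order statistics of the X median, was 0.778 to 0.930 in WT preB and 0.796 to 0.964 in Rescue preB. The 3 pre-proB ratios were the highest, and the intervals of all libraries but WT preB and Rescue preB included 1. Distal regions open in all libraries had ratios from 0.814 to 0.897. The Y chromosome held 4 shared promoters, those of Kdm5d, Eif2s3y, Uty and Ddx3y, so every library held reads from the Y chromosome.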

How the data were processed

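ATAC-seq peak lists of 7 libraries were analysed, 1 per group. Per the submitters' processing notes the authors used CASAVA 1.8.2, Bowtie2, Picard and MACS2 on mm10. The sources used here give no other versions or options, no duplicate handling and no shift of read ends, and name both Tn5 and sonication for fragmentation. Each deposited list gives per peak a score, a fold (ratio of summit to background pileup), the −log10 p-value and −log10 q-value, and a summit offset in bp. In each library the deposited folds were whole multiples of 1 step (100% of peaks, tolerance 0.02 steps), from which the summit pileups followed.

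Peaks overlapping by at least 1 bp were merged. The highest peak of each library represented a region. TSS came from GENCODE M21, sequence from GRCm38.p6. Fold ratios were centred on the median of the shared promoters and called at 2-fold. Intervals are at 95%: Wilson for shares, Newcombe for differences, Clopper-Pearson on pileups for ratios, order statistics for medians. The scripts were tested on simulated data. Tools were python 3.11.15, numpy 2.4.6, pandas 2.3.3, scipy 1.17.1 and matplotlib 3.10.9.

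Named genes were Erg, the 18 network genes, 4 other regulators, Actb, Gapdh, 8 motif factors, marker lists, the 3 regions with the highest and lowest fold, smallest range, greatest width and most genes, those at the distance limit, and in each direction of 5 comparisons the 3 coding regions with the largest ratio and at least 30 fragments in both libraries. Further regions named for Erg KO (1700027J07Rik, Camk1g, Pink1, Gm20110, Gm16299), the Y-linked genes and Gm15426 were chosen after their values were seen. A region that the rule names is not reported here. Members and lists were chosen with earlier results of these data known.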

Additional observations from a re-analysis of the deposited data

Results flagged for a closer look

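A single shared promoter of the 15216 moved by 2-fold or more in opposite directions between proB and preB in WT and in Rescue. Gm15426, a processed pseudogene at chr17:8765875-8767058, had folds of 111, 4.06 and 11.8 in WT (pre-proB, proB, preB), 123 in Erg KO, and 132, 17.2 and 7.22 in Rescue. The centred log2 ratio of preB to proB was 1.44 in WT (counting interval 0.73 to 2.28) and -1.38 in Rescue (-2.03 to -0.80). It drew attention because the 2 genotypes moved in opposite directions. The difference was not tested, since each group had 1 library, and the WT proB value rests on 21 fragments.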

How the results depend on the processing

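No paired analysis was possible because each group had 1 library. The number of shared promoters was 13701 at a promoter distance of 250 bp, 18526 at 2500 bp, 12843 with coding TSS only, 13603 with scores of at least 100, 14245 with lists of equal length, 14332 with TSS windows in place of merged peaks, and 15261 to 15754 with each library left out. The share of coding genes with one was 57.6%, 61.1%, 55.9% and 57.3% at 250 bp, at 2500 bp, with scores of at least 100 and with equal lists, and 59.1% to 60.2% with each library left out. In the order WT proB, WT preB, Erg KO, Rescue pre-proB, Rescue proB and Rescue preB, the regions past 2-fold numbered 3790, 2306, 588, 598, 1557 and 1304 when peak length times mean fold was compared. Among regions with at least 30 fragments in both libraries they numbered 474, 6, 9, 290 and 152 from WT preB on, with fewer regions compared. Without this limit, 444 of 946, 24 of 27, 28 of 35, 177 of 465 and 125 of 295 had a mean fold under 10. By source name the 3 Rescue counts were 2250, 2219 and 718, and the log2 ratio of the internal Erg promoter in Rescue pre-proB turned to 1.44. ETS letters stood in 12% of windows of 100 bp on either side of the summit and 8.03% of windows centred 50 bp upstream of the TSS, and reversed in 2.10%. A stricter CpG definition chosen after seeing the data (GC 55%, ratio 0.65) gave 57.1% CpG-rich. Summit medians for a single gene and TSS were -4, 1, 4, -8, -10, 1 and 4 bp (the 3 WT libraries, Erg KO, the 3 Rescue libraries). The cause of these changes was not tested where none is given. The X ratios moved by less than their intervals with coding TSS and with background subtracted. With each library left out where the comparison allowed, the counts past 2-fold were 2059 to 2243, 952 to 970, 27 to 30, 35 to 39, 463 to 536 and 295 to 306. Peaks under 10 to 12 fragments were not called, so a region that a library lacks may still have been open there.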
